A study of Mus musculus with 2 samples.

Results

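The Six3 and Six2 segment is a tiled stretch of mouse chromosome 17, with probes from 85200808 to 86699986 (build mm9), that carries the homeobox genes Six3 and Six2 and their neighbours. Its members were chosen by position alone, as fixed 1 kb windows holding at least 3 array probes. They number 1364 of the 14947 windows on the array and hold 15764 of its 170542 probe positions. A further 55 windows of the segment held fewer than 3 probes and were not used. The stretch between the gene bodies of Six3 and Six2, from 86031154 to 86083607, spans 52.5 kb and holds 47 windows and 467 probes.

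The arrays carried DNA recovered with an antibody against Rad21 from cross-linked chromatin (ChIP-chip). The cells were of RAG, a line from a renal adenocarcinoma of the mouse, which the study uses as its cells without Pax6 activity. There was 1 group of 2 arrays, replicates 1 and 2, each from its own flask with no treatment named, so replicates are cultures of 1 line. ChIP and input DNA from formaldehyde-fixed cells were amplified and reamplified, then labelled in Cy3 and Cy5.

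All values are log2 ratios of Cy3 over Cy5 after centring on the array median, and this direction is opposite to the labels. The labels put input DNA in Cy3 and ChIP DNA in Cy5 of each array, and the dyes were not swapped. The log2 table deposited for the same arrays nevertheless has the sign of Cy3 over Cy5. Results are therefore given by dye, and which dye held the ChIP DNA was not settled by these files.

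Rad21 is a subunit of cohesin, the ring-shaped complex that holds sister chromatids together and folds chromatin into loops. The DNA-binding protein CTCF halts cohesin, and many cohesin sites in mammalian cells lie on CTCF motifs whose strand is known to matter for which sites pair in a loop. Six3 encodes a transcription factor needed for forebrain and eye development. Six2 encodes a related factor that maintains the progenitors of the kidney nephron. Six3os1 is a noncoding transcript read from the strand opposite Six3.

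The sequences at the strongest sites of the segment are shown first, because most of them carry a match to the CTCF core motif. The motif was searched on both strands within 500 bp of each site's summit, with at most 1 mismatch. Sites here are the called regions described below, numbered 1 to 19 along the chromosome. The word does not mean that binding was shown. Capitals mark the motif match in the reference sequence of mm9, written 5′ to 3′ on the strand named.
Region 9, in an intron of Camkmt, chr17:85588983-85589054, minus strand: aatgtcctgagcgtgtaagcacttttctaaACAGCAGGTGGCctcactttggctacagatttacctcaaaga
Region 11, between Six3 and Six2, chr17:86064455-86064526, plus strand: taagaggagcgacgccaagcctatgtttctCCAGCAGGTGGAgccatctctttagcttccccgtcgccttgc
Region 15, in an intron of Srbd1, chr17:86462967-86463038, minus strand: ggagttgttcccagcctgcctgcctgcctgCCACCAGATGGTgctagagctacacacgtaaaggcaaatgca
Region 16, before the start of Prkce, chr17:86561393-86561464, plus strand: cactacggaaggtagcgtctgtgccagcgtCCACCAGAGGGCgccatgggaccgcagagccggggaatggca
Region 10, just past Six3, around its summit, chr17:86033385-86033456, plus strand: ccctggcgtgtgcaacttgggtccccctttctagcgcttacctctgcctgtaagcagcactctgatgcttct
The match of region 16 had no mismatch and those of regions 9, 11 and 15 had 1. Region 10 has no match within 500 bp of its summit, so its stretch holds no capitals and is shown for contrast.

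The arrays gave clear signal over most of the segment. The median Cy3 signal was 1469.5 on replicate 1 and 1892 on replicate 2, which was 59.8 and 77.6 times the local background. The Cy5 medians were 4171.5 and 5065.5, at 27.1 and 32.2 times the background. Saturated spots numbered 186 and 125 in Cy5 and 2 and 3 in Cy3. Over the 15764 probes the arrays correlated with Pearson r = 0.537 and Spearman rho = 0.451. Over the 1364 windows they correlated with r = 0.707 and rho = 0.551, and r was 0.496 when the windows called higher in Cy3 were left out. The points within an array share 1 library, so these are descriptions across positions.

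Most of the segment lay close to the array median, with short stretches well above it. In 46 of the 1364 windows (3.37%) Cy3 was higher than Cy5 at an adjusted p under 0.05, against 3.69% of all windows on the array. In 45 windows (3.3%) Cy5 was higher, against 5.41% of all windows (limma, mean of 2 arrays against 0, Benjamini-Hochberg over 14947 windows). At an unadjusted p under 0.05 the counts were 91 and 208. Both shares were thus close to or below those of the whole array. Window means ran from -0.857 to 1.859, and the median SD between the arrays was 0.093.

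The calls in each direction differed in size. Among windows higher in Cy3 the median was 0.702, and 11 of them were above 1 on both arrays. Those higher in Cy5 had a median of -0.462, and none of the 45 passed -1 in the mean. Their base composition differed as well, with mean GC content of 45.4% in the windows higher in Cy3, 35.7% in those higher in Cy5 and 44.4% in all windows. The balance of calls moved with the scaling, from 50.5% higher in Cy3 to 68.7% after loess, 87.9% after correction for probe GC content and 24.5% after centring on the mode. Centring on the mode shifted all values by -0.108 on replicate 1 and -0.041 on replicate 2. The part of GC content in the calls higher in Cy5 was not tested beyond that correction, which left 7 of them.

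**Figure D1:**
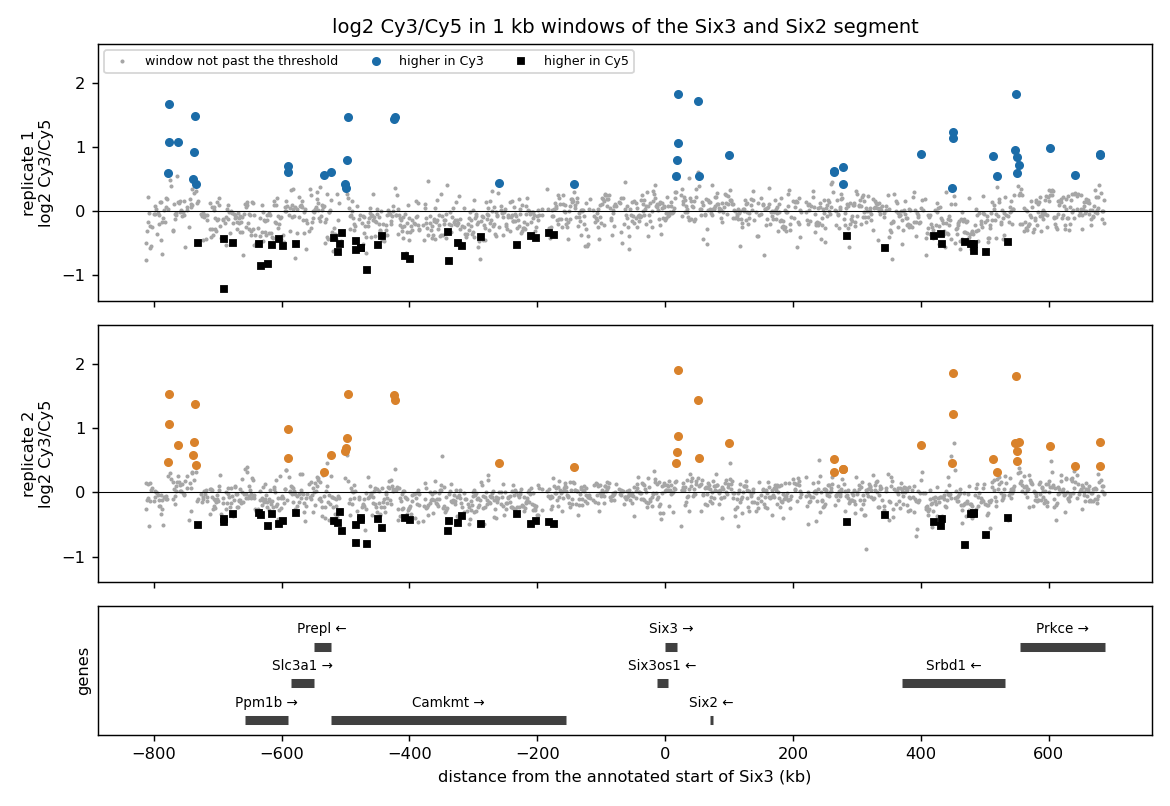
Log2 Cy3/Cy5 of the 1364 windows on replicate 1 (top) and replicate 2 (middle) against distance from the annotated start of Six3 in kb, with genes and their direction of transcription below. Coloured circles are the 46 windows higher in Cy3 and black squares the 45 higher in Cy5. The highest points sit at the same places on both arrays.

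The highest window of the segment began at 86033000, just past Six3. Its 8 probes all lay before a stretch with no probes that begins at 86033632, so they cover only part of the window. The window read 1.82 on replicate 1 and 1.899 on replicate 2, a mean of 1.86 ± 0.098 (limma SE, n = 2, adjusted p = 0.000169). The next, at 86561000 before Prkce, read 1.82 and 1.80. The window at 85237000, before Ppm1b, read 1.67 and 1.52. The window at 86064000, between Six3 and Six2, read 1.71 and 1.43. The window at 86463000, in Srbd1, was the least even of these, with 1.23 and 1.86. All 5 lay far above the spread between arrays, and the adjusted p of the last was 0.00111.

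At the other end, the lowest window began at 85546000 in the body of Camkmt and read -0.91 and -0.80 (adjusted p = 0.00265). It rested on 4 probes with a GC content of 24.2%. The window at 85322000 had 3 probes and read -1.21 and -0.41, so replicate 1 set its mean. The windows at 85391000, 86481000 and 86514000 had means of -0.68, -0.65 and -0.65. The body of Camkmt held 23 of the 45 windows higher in Cy5, which was 6.95% of its 331 windows, near the 5.41% of the whole array. Its mean GC content was 41.9%.

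**Figure D2:**
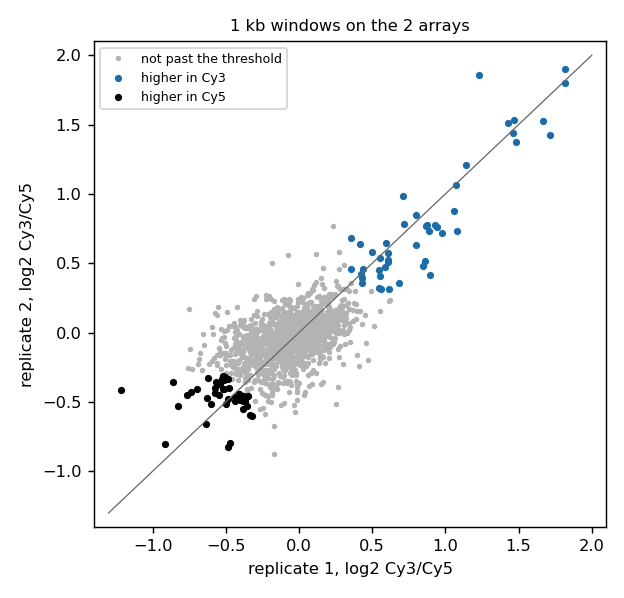
Replicate 2 against replicate 1 for the 1364 windows, in log2 Cy3/Cy5, with the line of equal values. The windows higher in Cy3 (blue) spread along the line up to 1.859 in the mean, and those higher in Cy5 (black) lie in the lower left with the lowest mean at -0.857.

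The stretch between Six3 and Six2 held 2 separate sites and little else. Of its 47 windows, 5 (10.6%) were higher in Cy3 and 0 were higher in Cy5 (limma; 8 and 1 at an unadjusted p under 0.05), beside 3.69% and 5.41% of all windows. The 22.6 kb between Srbd1 and Prkce had a higher share, with 5 of 19 windows (26.3%) higher in Cy3, and also held 2 regions. The 47 windows averaged 0.191 on replicate 1 and 0.13 on replicate 2, with a median of 0.10. The called windows formed a block of 3 at 86031000 to 86033999 and a pair at 86064000 to 86065999.

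In 1 kb windows the values rose from the last part of Six3 outward. The window at 86030000, inside the body of Six3, read 0.55 and 0.45. The window at 86031000, which holds the annotated end of Six3, read 0.80 and 0.63 (adjusted p = 0.00709). The window at 86032000 read 1.06 and 0.88 (adjusted p = 0.00166), and that at 86033000 was the highest of the segment. The order was the same on both arrays.

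The last of these rises ended at a stretch with no probes. Region 10 ran from 86030649, inside the body of Six3, to 86033631, where its last probe ended. The next probe began at 86037108, which left 3476 bp unmeasured. The running median over both arrays stood at 2.00 at the last probe and at -0.05 at the first probe after it. In the last 1 kb before the stretch, 12 probes averaged 1.70 on replicate 1 and 1.71 on replicate 2. In the first 1 kb after it, 5 probes averaged 0.25 and -0.52. The far edge of this site was therefore not measured. No CTCF core motif was found in the untiled stretch, and the only match inside the region lay 2104 bp from the summit, a search made after the values were seen.

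The site nearer Six2 was narrower. Region 11 ran from 86063880 to 86065107, and its 10 probes within 300 bp of the summit ranged from 0.81 to 2.88 on replicate 1 and from 0.605 to 2.605 on replicate 2. Their medians were 2.035 and 1.78, or 4.1-fold and 3.42-fold Cy3 over Cy5. The summit lay 31.4 kb from that of region 10 and 22.8 kb from the start of Six2. At region 10 the corresponding 7 probes had medians of 1.92 and 2.09, or 3.79-fold and 4.26-fold. These summaries around a summit were also added with the values known.

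**Figure D3:**
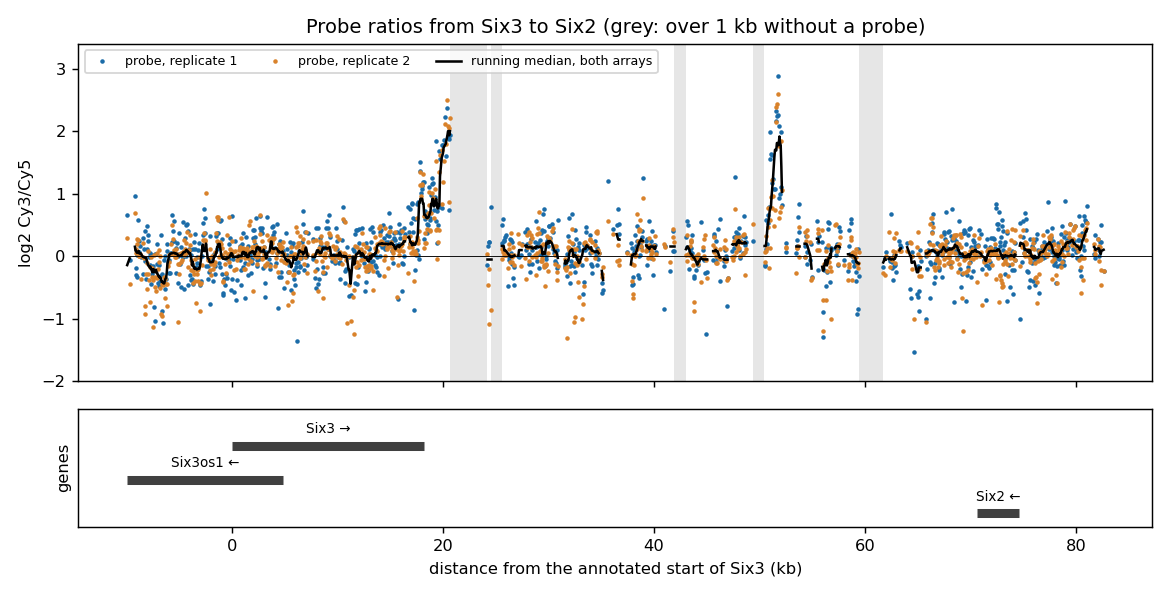
Log2 Cy3/Cy5 of single probes on replicate 1 (blue) and replicate 2 (orange) from Six3 to Six2, against distance from the annotated start of Six3 in kb, with the running median over both arrays in black. Stretches of over 1 kb without a probe are grey. The median rises to 2.00 at the edge of the grey stretch past Six3 and to 1.92 at the site nearer Six2.

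The starts of Six3, Six3os1 and Six2 lay near the array median. The window at the annotated start of Six3 read -0.14 and 0.02 (mean -0.06 ± 0.102, SE, adjusted p = 0.735). The window that holds the other annotated starts of Six3, at 86020183 and 86020371, averaged 0.01 (adjusted p = 0.981), and was looked up after the values were seen. The start of Six2 read 0.03 and 0.17 (mean 0.10, adjusted p = 0.549), and that of Six3os1 read -0.07 and 0.04. None of these windows was called, and each array's values lay within 0.2 of 0. The nearest summit to the Six3 start, that of region 10, was 20.5 kb away.

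Among the other genes, 1 start window was called. Prepl, which encodes a serine hydrolase related to prolyl endopeptidases, and Camkmt, which encodes the enzyme that methylates calmodulin, start in opposite directions within the same window. It read 0.61 and 0.575 (mean 0.59 ± 0.097, SE, adjusted p = 0.0129). The call was lost in 500 bp windows (0.35, adjusted p = 0.107) and in 1 kb windows shifted by 500 bp (0.29, adjusted p = 0.119). Region 6, at 85489111 to 85489530, lies inside this window within Prepl, and averaged 1.17 and 1.14 on the arrays. It was not called on replicate 2 alone. Its 8 probes within 300 bp of the summit had medians of 0.944 on replicate 1 and 0.51 on replicate 2.

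The remaining starts did not pass the test. Srbd1, a gene for a protein with an S1 RNA-binding domain, read 0.22 and 0.25 (adjusted p = 0.166). Slc3a1, which encodes a subunit of the kidney cystine transporter, read 0.32 and 0.10 (adjusted p = 0.243). Ppm1b, a protein phosphatase gene, had a mean of -0.01 that turned to 0.42 in windows shifted by 500 bp (adjusted p = 0.0536) and to 0.35 in 500 bp windows. Prkce, the gene of protein kinase C epsilon, read -0.19 on replicate 1 and 0.15 on replicate 2. The noncoding 1110020A21Rik had a mean of -0.13. Over the whole array, 10 of 117 windows with a protein-coding start (8.55%) were higher in Cy3.

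**Figure D4:**
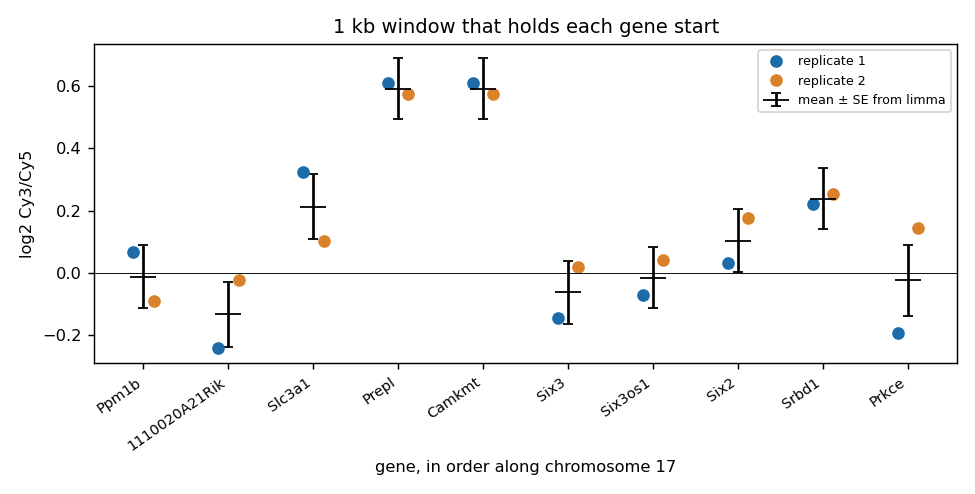
Log2 Cy3/Cy5 of the 1 kb window at each gene start, in order along chromosome 17, with replicate 1 in blue, replicate 2 in orange and the limma mean ± SE in black. The window shared by Prepl and Camkmt, at 0.59, is the only one called. The points of Six3, Six3os1 and Six2 lie around 0.

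Joining neighbouring probes gave 19 regions higher in Cy3 and 0 higher in Cy5. A region needed at least 3 probe positions whose running median within 400 bp passed 0.638, a threshold set on the whole array. For Cy5 the threshold was -1.106, beyond the lowest window mean of the segment, -0.857. On the whole array 4 regions passed it. The counts of 19 and 0 therefore do not compare the dyes at an equal threshold. Regions were called on these same values, so their heights are descriptions with no test. The 19 regions higher in Cy3 covered 24.1 kb (1.6%) of the segment at 12.7 per Mb, where the 17.4 Mb tiled held 209 such regions. All 19 overlapped a called window, and 9 of the 46 windows higher in Cy3 lay outside regions. Of these 19, 15 overlapped a call on replicate 1 alone and 16 one on replicate 2 alone, with 13 on both and 1 (region 12) on neither. The calls on 1 array set their own thresholds, 0.925 on replicate 1 and 0.665 on replicate 2. Because the 19 were called on both arrays together, this overlap is partly built in. Called separately, each array gave 17 regions, and 12 of the 17 on each were found on the other.

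Regions were 240 to 3152 bp long with a median of 852 bp. In 9 of the 19 an edge lay at an untiled stretch of at least 300 bp, so these lengths may be cut short. Of the 19 summits 10 lay between genes, 8 in introns and 1, region 5, in an untranslated region of Ppm1b. The peaks of the running median went from 0.651 to 2.14, with a median of 1.13 against 1.29 for the 209 regions of the whole array. Neighbouring summits stood a median of 49.7 kb apart. The widest gap, 444 kb, ran from region 9 in Camkmt to region 10 past Six3. The 143 kb between Camkmt and Six3os1 held no region and 1 called window of 127.

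The highest peak was region 9, at 85587877 to 85590124 in an intron of Camkmt. It averaged 1.34 on replicate 1 and 1.36 on replicate 2 and peaked at 2.14. Region 16, at 86560462 to 86563613, averaged 1.20 and 1.14, peaked at 2.12 and lay 5.82 kb before the Prkce start. Region 10 averaged 1.09 and 0.99. Region 15, at 86461720 to 86464512 in Srbd1, averaged 0.91 and 1.27, a wider split between arrays than in the first 3. Region 11 averaged 1.64 and 1.26, with replicate 1 the higher.

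The next 5 peaks all lay outside the stretch between Six3 and Six2. Region 1, at 85235957 to 85237774 before Ppm1b, averaged 1.34 and 1.26. Region 8, at 85514940 to 85517047 in Camkmt, averaged 1.09 and 1.16, with region 7 only 3.04 kb from it at 1.115 and 1.32. Region 4, at 85276513 to 85277942, averaged 1.275 and 1.16. Region 18, in Prkce, averaged 1.21 and 0.91. The other regions peaked between 0.651 and 1.05, and the least even was region 13 with 1.45 and 0.80. Saturated probes made up 10 of the 360 in regions and touched 9 of the 19.

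**Figure D5:**
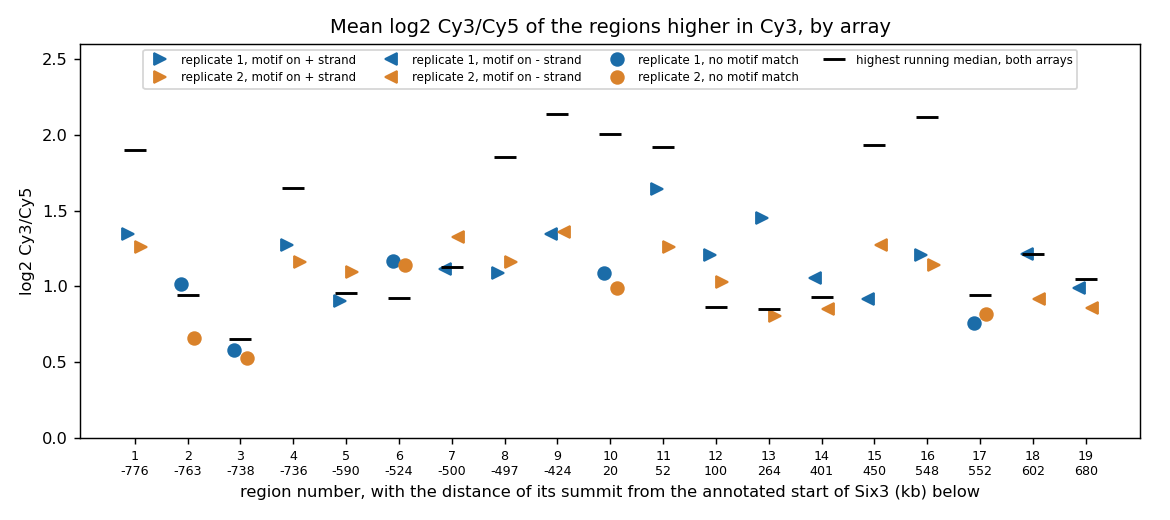
Mean log2 Cy3/Cy5 of the 19 regions on replicate 1 (blue) and replicate 2 (orange), with the highest running median as a black bar, ordered along the chromosome with the summit's distance from the Six3 start in kb. Triangles pointing right mark a motif match on the plus strand, those pointing left a match on the minus strand, and circles no match. All means lie above 0.5, and the largest split is at region 13.

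The CTCF core motif was present at most regions. A match lay within 500 bp of the summit in 14 of 19 regions (73.7%), against 133 of the 209 on the whole array (63.6%). The matches lay a median of 152.5 bp from the summit, and 6 had no mismatch. A 1 kb window of the segment held such a match in 8.43% of cases, which gives the background for windows of the same length as those searched. Regions 2, 3, 6, 10 and 17 had none.

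Among windows, 20 of the 115 with a match (17.4%) were higher in Cy3 and 2 in Cy5, and 2.08% of those without one were higher in Cy3. The shares over the whole array were near these, at 16.2% with a match and 2.65% without. Of the 8 windows with a match free of mismatches, 6 were higher in Cy3 and 0 in Cy5. Over the whole array these were 44 of 78 (56.4%) and 0. Mean GC content was 45.0% in windows with a match and 44.4% in those without. A motif match is a description of the letters and was not tested as a binding site.

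Of the 14 regions with a match, 8 carried the nearest one on the plus strand and 6 on the minus strand. Pairs were formed between neighbours among these 14 regions only, so regions with no match within 500 bp of the summit were passed over. Of these pairs, 4 faced each other, 3 faced apart and 6 pointed the same way. The pair that spans Six3, region 9 on the minus strand and region 11 on the plus strand, faced apart over 476 kb. Region 10 lies between them and was passed over. Its only match, on the plus strand 2104 bp from its summit, was not used. These window and pair counts were chosen after the values were seen.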

How the data were processed

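The 2 arrays of 1 group were grouped from the labels. The members and lists were chosen with earlier results of these data known. The intensities the authors deposited came from Feature Extraction 10.5.1.1, with background subtracted and each channel scaled by a dye factor, beside 0 or 1 marks of spot quality that were deposited with them. The deposited log10 ratios of Cy5 over Cy3 served only as a check. The log2 table the authors deposited was made with Ringo without stated parameters. Its rows match no probe name. Sorting the probes on their number as a character string and dropping the leading 3 gave r = 0.964 and 0.962 with the 300 bp running median of Cy3/Cy5. Its scale and smoothing are not stated, and its medians were -0.0066 and -0.0059.

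Here log2 of processed Cy3 over Cy5 was centred on the median of all non-control spots and outlier spots were left out. A run centred on unique probe positions was made the main setting for a time after the counts of calls had been seen, and then returned to an alternative. Windows of 1 kb were tested with limma 3.58.1 (R 4.3.3; lmFit and eBayes, two-sided, adjusted p under 0.05). In a simulation with noise from the fitted variance prior and a shift of 1 in 200 of 14947 windows, 198 were recovered and 21 others called. Its noise was centred on 0 and independent between the arrays. The segment's windows not called higher in Cy3 correlated between arrays with r = 0.496. The shift of 1 also exceeded the median of the segment's calls higher in Cy3, 0.702. These rates are therefore not those of the real windows. Regions joined positions under 600 bp apart, above the null's 0.99 quantile (values under the mode, reflected about it), with at least 5 values in the running median. Each direction's null comes from the other side, so Cy3 signal raises the Cy5 threshold, here -1.106. In a simulation with independent noise and 200 planted regions 1.5 high over 170542 probes, 199 were recovered. Of the 488 regions called there, 294 held no planted centre. That simulation set its own threshold on independent noise, so its rates are not those of the calls here. The share of false calls among the real regions was not measured, and a call is not proof of binding. Genes are from GENCODE on NCBIM37, the build of mm9; Camkmt is listed there as 1700106N22Rik and was renamed through RefSeq synonyms. Named were the 10 highest regions, those between Six3 and Six2 or at a gene start, and the 5 highest and 5 lowest windows. The number of arrays limits precision. The p-values and SEs combine the spread between these 2 cultures with a variance pooled over all windows of the array. The pooled part, limma's prior with 6.48 degrees of freedom, weighs more than the window's own spread. Normexp used median spot signals in place of means. Scripts ran in Python 3.11.15 with pandas 2.3.3 and numpy 2.4.6.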

Additional observations from a re-analysis of the deposited data

How the results depend on the processing

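Regions higher in Cy3 numbered 13 to 26 over all settings, and both regions between Six3 and Six2 were called in each. Recomputed means of the 19 regions ran from 0.474 to 1.64, and since the regions were called on the same probes their sign says nothing of stability. Gene start values changed sign in 14 of 160 recomputed values, none of them past the threshold. The count of windows higher in Cy5, 45, was the least steady: 70 without background correction, 21 after loess, 123 with mode centring, 7 after GC correction, 19 with probes well above background, 10 from the deposited values, 76 in 500 bp windows, 73 in 2 kb windows and 0 with limma's trended robust prior (141 at an unadjusted p under 0.05). Regions higher in Cy5 rose from 0 to 119 at the 0.95 quantile. Windows higher in Cy3, 46, came to 76 in 500 bp windows, and those between Six3 and Six2, 5, to 9 in 500 bp and 3 in 2 kb windows. The segment held 2330 windows of 500 bp and 724 of 2 kb, against 1364 of 1 kb. Counts of either dye at these sizes therefore have other totals. On the whole array 876 windows of 500 bp were higher in Cy3 and 1411 in Cy5, and 462 and 1133 of 2 kb. The called gene start window was lost (0) in 500 bp windows (3 at an unadjusted p under 0.05) and 0 remained in shifted ones (4 unadjusted). With no mismatch 6 regions held the motif. With the deposited values, which are smoothed, r between arrays was 0.67 against 0.537 (a shift over 0.05, a tolerance set with the values known) and the median region mean 1.006 against 1.115. Leaving out 1 array gave 17 regions each time, 12 to 13 with the motif, 0 to 1 higher in Cy5 (1 without replicate 1) and a median region mean of 1.097 to 1.115; windows could not be tested on 1 array. Centring on unique probe positions, added after the counts were seen, gave 48 and 48 windows in the segment and 577 and 876 on the array, where the main setting gave 552 and 808. The cause of these changes was not tested. No paired analysis was possible because the design has 1 group only. Saturated Cy5 spots and untiled stretches limit what can be read.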
